A study of Mus musculus with 10 samples.

Results

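The genes described here encode proteins of the smooth muscle contractile apparatus: the actins Actg2 and Acta2, the smooth muscle myosin heavy chain Myh11, the regulatory light chain Myl9, the tropomyosins Tpm1 and Tpm2, the calponins Cnn1 and Cnn2, caldesmon (Cald1) and transgelin (Tagln). They were taken by gene symbol from the platform annotation, which gave all 10 genes and 26 probes out of 19057 genes and 45281 probes on the array. RNA came from 10 frozen skin melanomas, 5 labelled MPNST-like and amelanotic and 5 labelled pigmented, where MPNST stands for malignant peripheral nerve sheath tumor. All 10 arose in C57BL6 mice of the BrafV600E-CDK4R24C genotype. Tamoxifen put on the skin on 4 days in a row switched on the mutant Braf allele, and 1 dose of the carcinogen DMBA on the skin followed, so both groups carry every allele and agent. The cell type in which the Braf allele was activated and the ages of the mice were not stated by the labels. No label says that the tumors came from separate animals, so p-values measure only the spread between these specimens. Each tumor was read on 1 single-colour Illumina array. MPNST-like 1 and 2 and pigmented 1 and 2 shared chip 1, and the other tumors shared chip 2.

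In smooth muscle, myosin filaments pull on actin filaments after a kinase has phosphorylated the myosin light chain. Tropomyosin lies along the actin filament, and caldesmon and calponin bind the filament and restrain the myosin. Acta2, Tagln, Cnn1 and Myh11 are the usual markers of vascular smooth muscle, with Myh11 and Cnn1 the most restricted to mature muscle, while Acta2 and Tagln are also switched on in pericytes and in activated fibroblasts. Actg2 is the actin of gut and other visceral smooth muscle. Myl9, Tpm1, Cald1 and Cnn2 are also made by many cells that are not muscle, and Tpm1 and Tpm2 are also thin filament proteins of striated muscle.

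The MPNST-like tumors held far more RNA of Actg2 than the pigmented tumors, and more RNA of Myl9, Cald1, Tpm1 and Cnn2. Tpm2 was also higher, but by 1 of its 3 detected probes only. Acta2, Tagln and Myh11 did not pass the test, and Cnn1 was too close to background to be tested. In bulk tumor RNA, more cells of a type and more RNA per cell cannot be told apart. Of 9 member genes tested, 6 rose and 0 fell (MPNST-like over pigmented, adjusted p under 0.05), where 18.6% of all 11984 genes rose and 20.2% fell, 38.8% together. The groups did not overlap for 4 of the 9, all of them higher in the MPNST-like tumors, as was the case for 12.1% of all genes. The median log2 difference, MPNST-like minus pigmented, was 1.78 over the 9 members and 0.011 over all genes. The members were picked with results of these data known, so these counts describe the set. Each value comes from a fit over all genes with limma and Benjamini-Hochberg adjustment, in which the brightest probe stands for its gene. The fit followed quantile normalization, under which 2228 genes were higher and 2418 lower. The split was 3845 to 902 after median scaling and 1220 to 3820 in the authors' values, in which the median of all genes lay at 0.33 and -0.22, so changes are relative to the quantile median. The number of members that rose was 6 in the authors' values and 7 after median scaling, 6 with chip as a block, 1 (Actg2) within chip 1, which holds 2 tumors of each group, and 5 within chip 2.

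The arrays differed somewhat between the groups. Detected probes numbered 19274 to 21581 on MPNST-like and 17908 to 20120 on pigmented arrays. Median intensity ran from 87.4 to 93.9 in MPNST-like and from 79.4 to 89.0 in pigmented arrays, and the lowest log2 value of a detected probe from 4.45 to 4.57 and from 4.51 to 4.68. The labels set amelanotic against pigmented tumors, so pigment genes describe the groups and cannot test the label melanoma. The pigment cell markers were 8 genes (Pmel, Tyr, Tyrp1, Dct, Mlana, Mitf, Slc45a2 and Oca2). Their summed level, in normalized intensity units above the offset, was 36 to 25754 in MPNST-like and 65282 to 71015 in pigmented tumors. The summed level was thus lower in every MPNST-like tumor than in any pigmented tumor, and lowest in MPNST-like 1. Dct by itself overlapped, at 14.01 in MPNST-like 5 and 13.95 in pigmented 1.

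Among the actins, Actg2 separated the tumors most. Its log2 intensity was 12.61, 12.47, 9.15, 13.12 and 12.25 in MPNST-like tumors 1 to 5, against 4.80, 6.09, 8.15, 6.70 and 6.15 in pigmented tumors 1 to 5. Every MPNST-like tumor lay above every pigmented tumor, and MPNST-like 3 and pigmented 3 came closest to each other. The mean was 11.92 ± 1.58 in MPNST-like and 6.38 ± 1.21 in pigmented tumors (SD, n = 5 each), a 46.5-fold difference (log2 5.54, SE 0.77, adjusted p = 3.3e-04) and the largest increase of all 11984 genes. Every array detected Actg2, and its value in pigmented 1 lay just above the lowest detected value of that array (4.58). It rose within chip 1 (7.18, adjusted p = 0.017) and within chip 2 (4.48, adjusted p = 0.02). A single probe (ILMN_2839313) represents Actg2 on the array.

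Acta2 was bright in both groups. Its brightest probe read 9.92, 11.66, 10.40, 11.13 and 11.53 in MPNST-like tumors 1 to 5, against 8.59, 10.51, 10.65, 11.12 and 9.90 in pigmented tumors 1 to 5. The ranges overlapped, with pigmented 1 lowest and pigmented 4 level with MPNST-like 4. The log2 difference was 0.78 (SE 0.48, adjusted p = 0.22), and it stood at 1.09 after median scaling and at 0.04 in the authors' values without passing in either (adjusted p of 0.074 and 0.96). It was 1.24 within chip 1 and 0.46 within chip 2. The other 3 detected Acta2 probes differed by 0.42 to 0.54, and 0 of the 4 passed. A further 2 Acta2 probes were detected in no tumor.

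The change of Actg2 was therefore set against that of Acta2 inside each tumor. The log2 ratio of Actg2 to Acta2 was 2.69, 0.80, -1.25, 1.99 and 0.72 in MPNST-like tumors 1 to 5, against -3.78, -4.42, -2.50, -4.42 and -3.75 in pigmented tumors 1 to 5. The groups did not overlap, and MPNST-like 3 again lay nearest to the pigmented tumors. The ratio differed by 4.76 (exact permutation test of the tumor labels, two-sided, p = 0.0079, adjusted over 2 ratios 0.016), which is the smallest p that 5 against 5 tumors can give. This difference follows from those of the 2 genes, 5.54 for Actg2 and 0.78 for Acta2. Both genes were picked with earlier results of these data known, so this p adds no separate support. The difference was 5.94 within chip 1 and 4.02 within chip 2. The ratio of Acta2 to Myh11 differed by 0.65 (exact permutation p = 0.17) and overlapped between the groups, at 5.11 to 6.40 in MPNST-like and 3.65 to 5.89 in pigmented tumors. Myh11 was not detected in MPNST-like 1 and pigmented 5 and lay near background elsewhere, so this ratio bears on Acta2 and says little of Myh11. The cytoplasmic actin Actb, which nearly all cells make, did not pass (0.05, SE 0.15, adjusted p = 0.81).

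**Figure D1:**
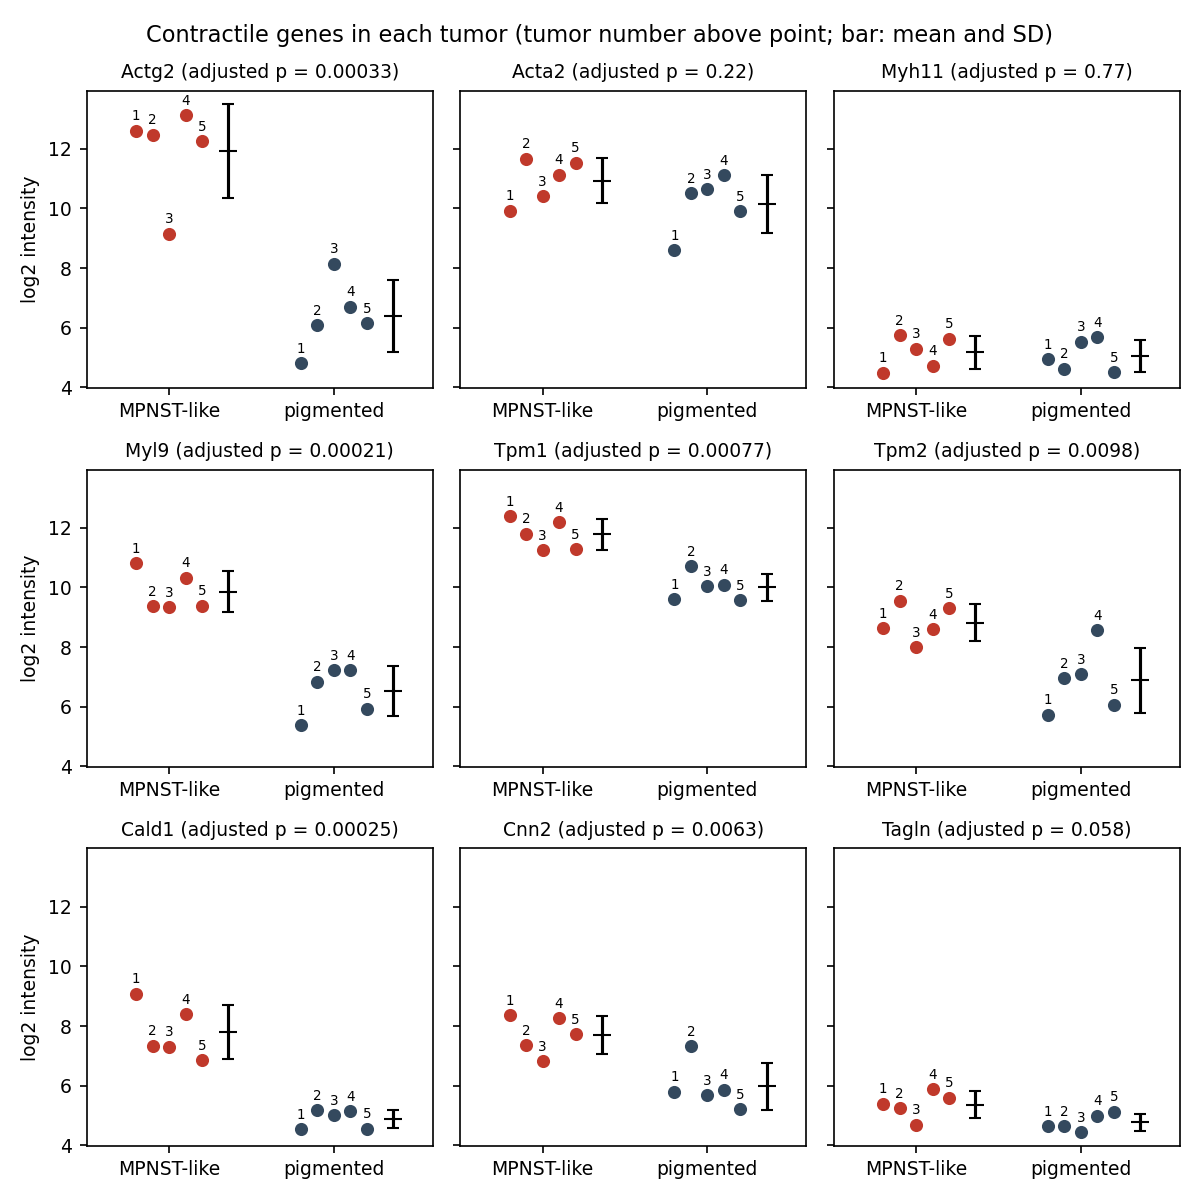
Log2 intensity (vertical axis, the same in all panels) of the brightest probe of each of 9 contractile genes in every tumor; the number above a point is the tumor number, and the bar gives the mean and SD of 5 tumors. Actg2, Myl9, Tpm1 and Cald1 did not overlap between the groups, while Tpm2 and Cnn2, which passed the test, and Acta2, Myh11 and Tagln did. Actg2 in MPNST-like 3 stood at 9.15.

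The markers of mature smooth muscle were near background in both groups. Myh11 read 4.49, 5.75, 5.29, 4.73 and 5.63 in MPNST-like tumors 1 to 5, against 4.94, 4.62, 5.53, 5.67 and 4.50 in pigmented tumors 1 to 5. It was detected in 4 of 5 tumors of each group, the groups overlapped throughout, and the log2 difference was 0.13 (SE 0.31, adjusted p = 0.77), with a sign that turned in the authors' values (-0.02). Cnn1 read 4.44, 4.17, 4.38, 4.22 and 4.31 in MPNST-like tumors 1 to 5, against 4.28, 4.30, 4.90, 4.21 and 4.62 in pigmented tumors 1 to 5. Its probe was detected in 0 of 5 MPNST-like tumors and in 1 of 5 pigmented tumors, so it was left out of the fit. A second Myh11 probe and a second Tagln probe were detected in no tumor.

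Tagln, an actin-bundling protein, was low. It read 5.40, 5.24, 4.69, 5.88 and 5.60 in MPNST-like tumors 1 to 5, against 4.64, 4.64, 4.44, 4.99 and 5.12 in pigmented tumors 1 to 5. MPNST-like 3 fell inside the pigmented range, and the other MPNST-like tumors lay above it. The log2 difference was 0.59 (SE 0.23, adjusted p = 0.058). Tagln passed after median scaling (0.88, adjusted p = 0.012), without MPNST-like 3 (0.75, adjusted p = 0.015) and without pigmented 5 (0.71, with an adjusted p just under the threshold).

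Of the myosin subunits, the light chain moved and the heavy chain did not pass. Myl9, the light chain whose phosphorylation starts contraction, read 10.82, 9.37, 9.33, 10.33 and 9.39 in MPNST-like tumors 1 to 5, against 5.37, 6.84, 7.22, 7.23 and 5.93 in pigmented tumors 1 to 5. Even the lowest MPNST-like tumor stood well above the highest pigmented tumor. Myl9 averaged 9.85 ± 0.69 in MPNST-like and 6.52 ± 0.83 in pigmented tumors (SD, n = 5 each), a 10.04-fold difference (log2 3.33, SE 0.42, adjusted p = 2.1e-04). It differed by 4.03 within chip 1, where 2 against 2 tumors did not pass (adjusted p = 0.063), and by 2.87 within chip 2 (adjusted p = 0.0067). Among the related light chain genes, the essential light chain gene Myl6 rose by 0.84 and the regulatory light chain gene Myl12a by 0.84. Myl12b (0.25) and the non-muscle heavy chain genes Myh9 (-0.02) and Myh10 (0.88) did not pass.

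Tpm1 and Tpm4 were higher, and Tpm2 was higher by its brightest probe only. Tpm1 read 12.38, 11.80, 11.24, 12.19 and 11.29 in MPNST-like tumors 1 to 5, against 9.61, 10.71, 10.04, 10.09 and 9.57 in pigmented tumors 1 to 5. The groups did not overlap, and Tpm1 was 3.42-fold higher (log2 1.78, SE 0.28, adjusted p = 7.7e-04), with a log2 difference of 1.05 in the authors' values (adjusted p = 0.016). Within chip 1 it differed by 1.95 (adjusted p = 0.12) and within chip 2 by 1.66, past the threshold. A second Tpm1 probe differed by 2.15, also without overlap, and the remaining Tpm1 probe was detected in no tumor. The non-muscle gene Tpm4 rose by 1.53 (SE 0.23, adjusted p = 5.6e-04), and Tpm3 did not pass (-0.06, adjusted p = 0.86).

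The 3 Tpm2 probes gave different pictures. The brightest (ILMN_2487170) read 8.64, 9.56, 7.99, 8.60 and 9.31 in MPNST-like tumors 1 to 5, against 5.73, 6.95, 7.08, 8.56 and 6.07 in pigmented tumors 1 to 5. All but pigmented 4 lay below the MPNST-like tumors, and the log2 difference was 1.94 (SE 0.49, adjusted p = 0.0098). The next probe (ILMN_2482209) read 5.58, 10.82, 4.98, 5.08 and 11.02 in MPNST-like tumors 1 to 5, against 6.80, 7.81, 7.48, 10.58 and 4.14 in pigmented tumors 1 to 5. It was high in MPNST-like 2 and 5 and in pigmented 4 and did not follow the groups (0.14, adjusted p = 0.95 over all probes). The dimmest probe differed by 0.19 (adjusted p = 0.62) and was also highest in MPNST-like 5 and pigmented 4, at 5.37 in each.

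Those 3 tumors were also the ones with the most striated muscle RNA. The striated muscle score, the mean log2 level of 16 measured genes such as Acta1, Myh4 and Ckm around each gene's mean, was 3.45 in MPNST-like 2, 3.74 in MPNST-like 5 and 3.20 in pigmented 4, and at most 0.11 in the other tumors. Over the list 0 of 16 genes passed, with Atp2a1 at -1.08 and Myh4 at 0.92, and their summed level ran from 100 to 63321 in MPNST-like and from 119 to 40560 in pigmented tumors. With this score as a covariate, the brightest Tpm2 probe differed by 1.93 (SE 0.32, adjusted p = 0.0011 over all probes) and the next by 0.10 (SE 0.20, adjusted p = 0.73). Leaving out the 3 tumors, as decided once their values were known, Tpm2 differed by 1.99 (adjusted p = 0.0061) and the number of members that rose was again 6. Averaging the 3 probes in place of taking the brightest gave 0.76 (adjusted p = 0.43) and ended the Tpm2 call. Tpm2 also missed the threshold within chip 1 (0.88, adjusted p = 0.83) and within chip 2 (1.39, adjusted p = 0.14).

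**Figure D2:**
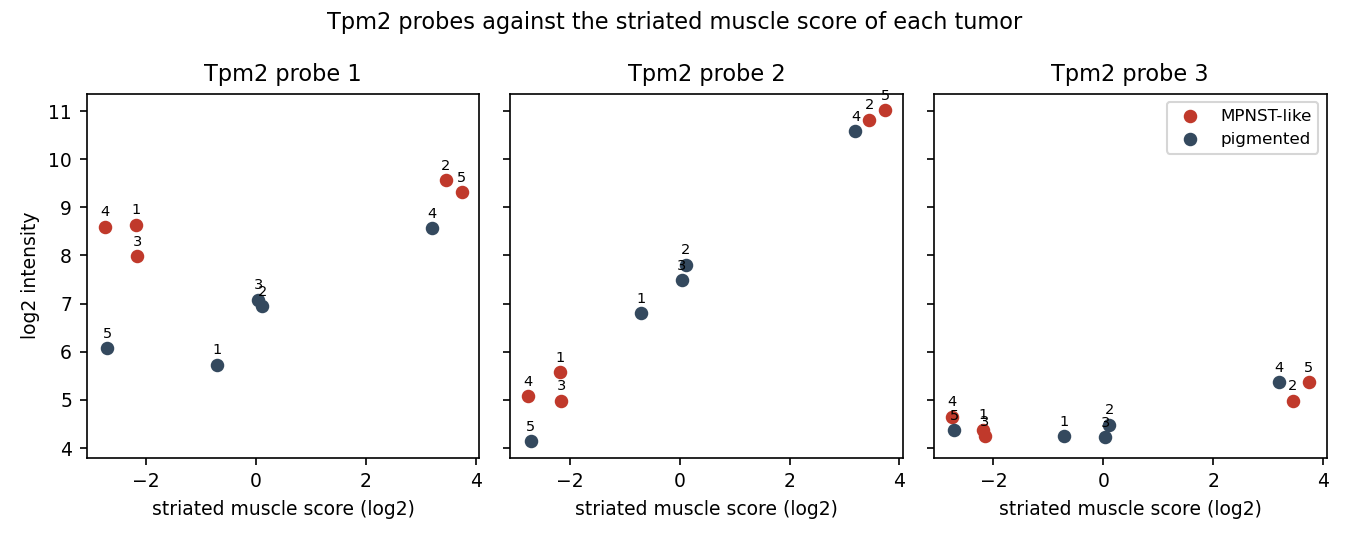
Log2 intensity of the 3 Tpm2 probes (vertical axis; probe 1 is the brightest) against the striated muscle score of the same tumor (horizontal axis, log2 units), 1 point per tumor with its number. Probe 2 lies low to high along the score, with MPNST-like 2 and 5 and pigmented 4 at the top, while probe 1 also sets the MPNST-like tumors 1, 3 and 4 above pigmented 1, 2, 3 and 5.

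Caldesmon and calponin 2, which bind the actin filament, were higher in the MPNST-like tumors. Cald1 read 9.08, 7.34, 7.31, 8.40 and 6.86 in MPNST-like tumors 1 to 5, against 4.53, 5.18, 5.0, 5.14 and 4.56 in pigmented tumors 1 to 5. The groups did not overlap, and Cald1 was 7.55-fold higher (log2 2.92, SE 0.38, adjusted p = 2.5e-04). It was detected in 5 of 5 MPNST-like and in 3 of 5 pigmented tumors, so the background limits the size of this fold. It differed by 3.44 within chip 1 (adjusted p = 0.074) and by 2.57 within chip 2, past the threshold. All 5 Cald1 probes passed, with log2 differences of 0.79 to 2.92. The dimmest was not detected in any pigmented tumor and was at least 1.34-fold higher, counted against the lowest detected signal.

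Cnn2, a calponin also made by cells that are not muscle, read 8.36, 7.36, 6.81, 8.26 and 7.73 in MPNST-like tumors 1 to 5, against 5.80, 7.32, 5.67, 5.86 and 5.21 in pigmented tumors 1 to 5. Pigmented 2 reached into the MPNST-like range, and the other pigmented tumors lay below it. Cnn2 was 3.32-fold higher (log2 1.73, SE 0.40, adjusted p = 0.0063), and its second probe differed by 1.26 (adjusted p = 0.012 over all probes). Cnn2 differed by 1.32 within chip 1 (adjusted p = 0.34) and by 1.99 within chip 2, past the threshold. Over all 20 detected member probes, 12 rose and 0 fell, where 15.4% of 22480 probes rose and 18.7% fell.

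**Figure D3:**
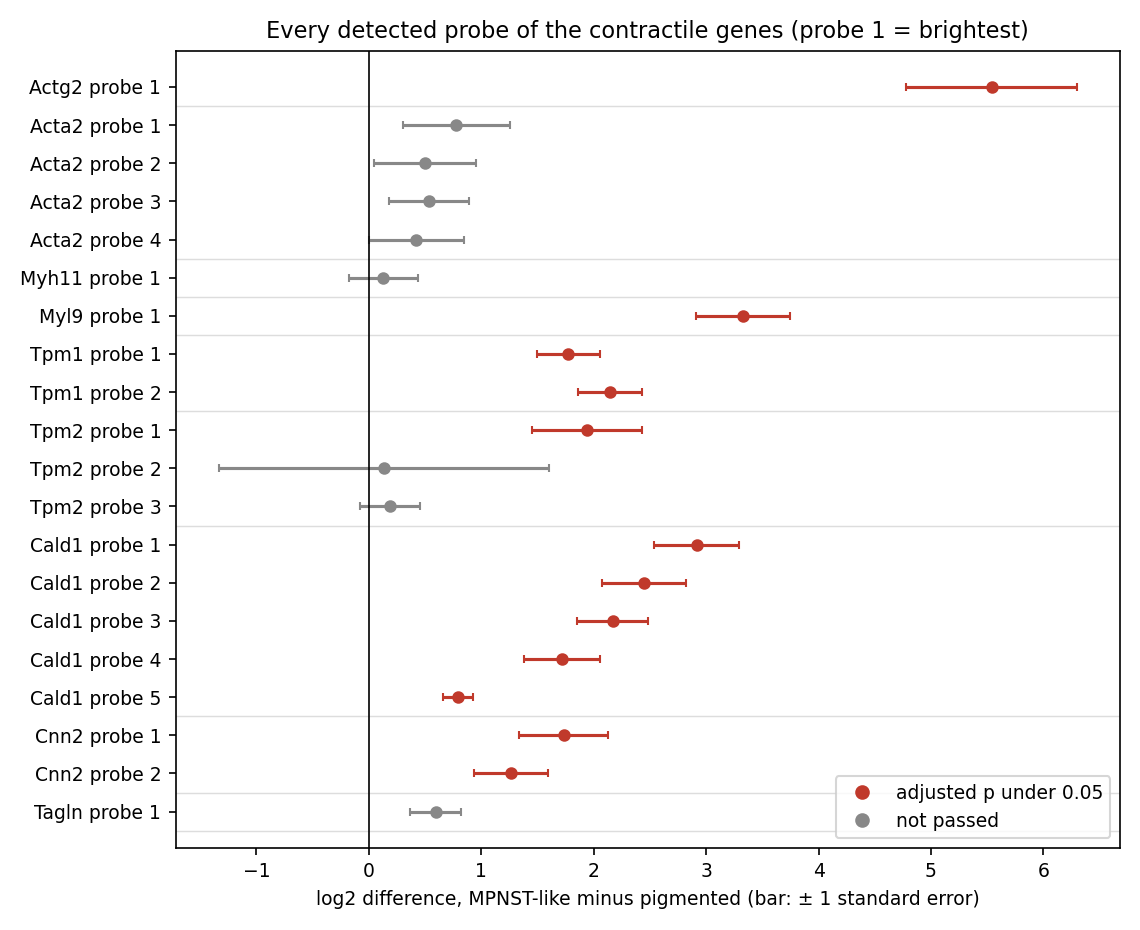
Log2 difference, MPNST-like minus pigmented (horizontal axis), of each of the 20 detected member probes, with bars of 1 standard error; red points passed at an adjusted p under 0.05. All 5 Cald1 probes and both Tpm1 and Cnn2 probes passed, 0 of 4 Acta2 probes did, and for Tpm2 only the brightest probe did.

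Serum response factor switches on smooth muscle genes through the CArG box, 2 C bases, 6 bases of A or T and 2 G bases, often together with myocardin or the myocardin-related factors. RefSeq promoters of GRCm38.p6, running from 250 bases before to 50 bases after the annotated start, were matched for 7 of the 10 members (Acta2, Cnn1, Cnn2, Myl9, Tpm1, Tpm2 and Cald1) and not for Actg2, Tagln and Myh11. A full CArG box was found in Cnn2, 56 bases before the start, and in Myl9, 161 bases before it, and in 1.63% of all 32851 promoter entries. With 1 other base allowed among the 6, Acta2 held 2 sites, 84 and 34 bases before the start, and Myl9 a further site at 99 bases, and 9.98% of all entries held at least 1. The TEAD factor motif CATTCC, searched on both strands, was found in Acta2, Tpm1 and 1 of the 2 Cald1 entries and in 14.7% of all entries, and overlapped no CArG site. These 4 promoters are shown because they hold the sites of a member that did not pass (Acta2) beside those of 3 that rose; capitals mark the CArG sites, with at most 1 other base, and the CATTCC sites on either strand.
Acta2, chr19:34255324-34255623, minus strand: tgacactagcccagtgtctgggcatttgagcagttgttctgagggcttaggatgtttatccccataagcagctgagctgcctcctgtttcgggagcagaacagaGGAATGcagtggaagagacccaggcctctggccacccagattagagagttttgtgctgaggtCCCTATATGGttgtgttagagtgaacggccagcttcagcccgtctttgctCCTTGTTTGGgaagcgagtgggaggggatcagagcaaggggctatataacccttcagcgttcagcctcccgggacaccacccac
Cnn2, chr10:79988350-79988649, plus strand: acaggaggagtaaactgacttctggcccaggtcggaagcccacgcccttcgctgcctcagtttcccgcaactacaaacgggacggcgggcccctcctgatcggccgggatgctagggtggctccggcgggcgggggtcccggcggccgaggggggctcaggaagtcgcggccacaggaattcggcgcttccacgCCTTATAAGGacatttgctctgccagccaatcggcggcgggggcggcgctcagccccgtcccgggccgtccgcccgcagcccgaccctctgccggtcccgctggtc
Myl9, chr2:156775214-156775513, plus strand: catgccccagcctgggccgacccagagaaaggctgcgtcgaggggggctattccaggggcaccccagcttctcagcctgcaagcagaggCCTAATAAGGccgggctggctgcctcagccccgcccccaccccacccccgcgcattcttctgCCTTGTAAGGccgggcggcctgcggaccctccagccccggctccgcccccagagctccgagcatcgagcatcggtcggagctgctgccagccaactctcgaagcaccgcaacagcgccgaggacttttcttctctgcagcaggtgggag
Tpm1, chr9:67049164-67049463, minus strand: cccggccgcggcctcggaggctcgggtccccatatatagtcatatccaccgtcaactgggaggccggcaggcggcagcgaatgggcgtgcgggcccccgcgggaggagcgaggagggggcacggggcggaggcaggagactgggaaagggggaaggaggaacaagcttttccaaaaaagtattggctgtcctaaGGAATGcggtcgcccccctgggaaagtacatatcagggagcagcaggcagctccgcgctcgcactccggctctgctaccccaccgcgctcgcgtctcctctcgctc
A match describes the letters in this window and does not show that a factor binds there.

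Serum response factor, Myocd, Mrtfa and Klf4 did not pass the test, and the other measured regulators rose. Of 10 measured regulators of the smooth muscle program, 6 rose and 0 fell, against 18.6% and 20.2% of all genes. Their median log2 difference was 0.999, and in the authors' values 4 rose. Serum response factor itself (Srf) did not pass (0.23, adjusted p = 0.39), nor did its cofactor gene Myocd (0.16, adjusted p = 0.43), detected in 3 of 5 MPNST-like and 1 of 5 pigmented tumors. Mrtfa, a cofactor that responds to actin assembly, did not pass either (-0.17, adjusted p = 0.42), with detection in 1 MPNST-like and 2 pigmented tumors. The genes that rose included Fhl2 (3.01, adjusted p = 7.7e-05, detected in 3 of 5 pigmented tumors), a LIM protein that binds serum response factor. The transcription factor gene Gata6 rose by 2.33 (adjusted p = 1.1e-04, detected in 1 of 5 pigmented tumors). The matricellular genes Ccn1 (2.25) and Ccn2 (2.10), which serum response factor and YAP induce, also rose. Prkg1 and Csrp2 rose by 1.04 and 0.96, and Klf4, a zinc finger factor, stood at 0.12 (adjusted p = 0.9).

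Of 10 measured smooth muscle partner genes, 4 rose and 1 fell, with a median of 0.72, where 18.6% of all genes rose and 20.2% fell, and in the authors' values 2 rose. Des, the intermediate filament gene of muscle, rose by 2.67 (SE 0.77, adjusted p = 0.019), Itga8, an integrin of smooth muscle and fibroblasts, by 2.56 (adjusted p = 0.015, detected in 4 of 5 MPNST-like and 1 of 5 pigmented tumors) and the scaffold gene Pdlim7 by 1.06. Csrp1, a LIM protein of smooth muscle, fell by 1.34 (adjusted p = 5.8e-04) without overlap. Des is also a gene of striated muscle, and it differed by 2.65 with the striated muscle score as a covariate (adjusted p = 0.0036) and by 2.76 without the 3 tumors rich in striated muscle RNA (adjusted p = 0.023). Of 6 measured genes that set myosin phosphorylation, 2 rose and 0 fell, a smaller share called than the 38.8% of all genes in either direction. Their median was 0.30, and in the authors' values 1 was higher and 2 lower. Mylk, the kinase of the light chain, rose by 1.16 (SE 0.23, adjusted p = 0.0028) without overlap, and Rnd3, a small GTPase, by 4.37 (SE 0.38, adjusted p = 2.7e-05). The phosphatase subunit genes Ppp1cb (-0.33) and Ppp1r12a (-0.24) did not pass. Of 14 measured genes listed as non-muscle actomyosin, 5 rose and 0 fell, where 18.6% of all genes rose and 20.2% fell. The share called in either direction was near that of all genes, but all calls were increases, with a median of 0.59. The counts were 8 and 0 after median scaling and 2 and 4 in the authors' values. Besides Tpm4, Myl6 and Myl12a, the adhesion genes Vcl (1.24) and Zyx (1.19) rose.

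**Figure D4:**
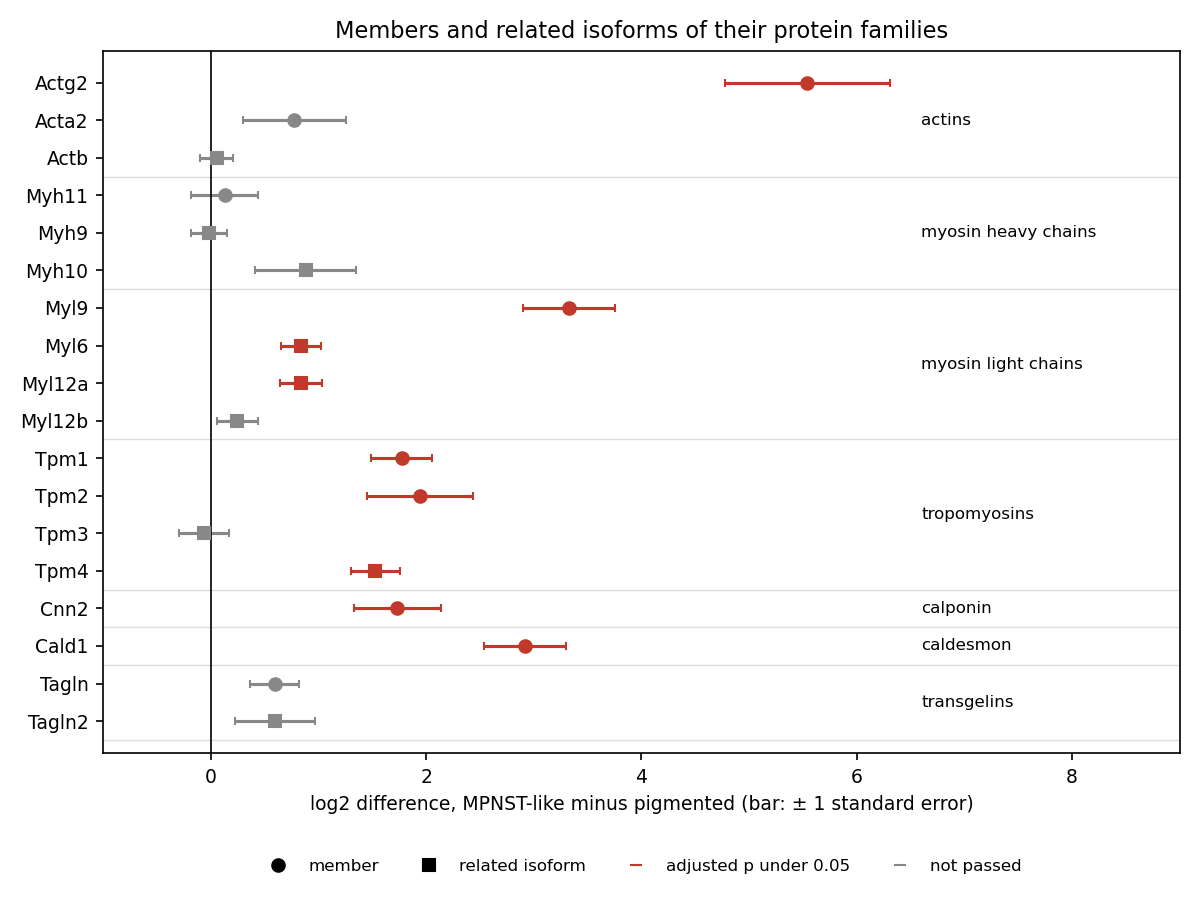
Log2 difference, MPNST-like minus pigmented (horizontal axis), with bars of 1 standard error, of the member genes (circles) and of related isoforms measured on the array (squares), grouped by protein family; red marks an adjusted p under 0.05. Actg2 stands at 5.54, against 0.78 for Acta2 and 0.05 for Actb. Myl9 stands at 3.33, against 0.84 for Myl12a and 0.25 for Myl12b, which are also regulatory light chains.

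The members varied among the tumors of a group. MPNST-like 3 was the lowest MPNST-like tumor for 6 of the 9 tested members, where it was lowest for 17.8% of all genes. Pigmented 1 was the lowest pigmented tumor for 5 of 9, where it was lowest for 15.2% of all genes. MPNST-like 1 was highest for 4 members (Cnn2, Myl9, Tpm1 and Cald1) and lowest for Acta2 and Myh11, where it was highest for 29.4% and lowest for 24.2% of all genes, so the tumor with the most Myl9 and Cald1 had the least Acta2 of its group. Over the 10 tumors the closest pair of members was Tpm1 and Cnn2, with a root mean square difference of 0.36 log2 units after each gene was centred on its mean, followed by Myl9 and Cald1 (0.45). Acta2, Tagln and Myh11 each differed from Actg2 by at least 2.61 units. The values were centred but not scaled, so this distance depends on the size of a gene's change as well as on its pattern over the tumors.

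Genes outside the set were ranked by the same distance. The nearest to Actg2 were the matrix glycoprotein gene Tnc (0.72), the growth cone gene Gap43 (0.72), Reln (0.75), the collagen gene Col8a1 (0.88) and 6330403K07Rik (1.07), of which Tnc is also on the fibroblast marker list and Gap43 on a Schwann cell marker list. The nearest to Acta2 were Flt1, a VEGF receptor of endothelium (0.36), the immune cell genes Fcer1g (0.37) and Lcp1 (0.38), the prostaglandin transporter gene Slco2a1 (0.39) and Irf5 (0.39). The genes nearest to Myh11, Igfals, Tmem106a, Themis2, Tnfrsf11a and Stmn2, lay within 0.20 to 0.24 units. Myh11 lay near background and varied little (SD 0.51 over the 10 tumors, where the median of all genes was 0.44). Such small distances therefore do not show a shared pattern. No member was among the 5 nearest genes of any of the 3. Because the values were not scaled, a member with a much smaller difference than Actg2 lies far from it whatever its pattern over the tumors.

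Markers of some other cells moved beside these genes. Over all genes, 18.6% rose and 20.2% fell, and each count below is to be read against these shares. All 11 measured fibroblast markers rose, and their summed level was 40157 to 51823 in MPNST-like and 1908 to 18975 in pigmented tumors, with pigmented 4 the highest pigmented tumor. Of 9 measured pericyte markers 6 rose and 1 fell (3 rose in the authors' values), with summed levels of 2369 to 3027 in MPNST-like and 1170 to 2402 in pigmented tumors. These sums mostly follow Mcam, whose log2 level averaged 10.96 in MPNST-like and 10.13 in pigmented tumors. The next highest mean was 8.25, that of Cspg4, the marker that fell, in pigmented tumors. Whether tumor cells or other cells made the Mcam and Cspg4 RNA was not tested. These sums and the fall of Cspg4 are therefore no measure of pericytes. Rgs5, a pericyte gene, rose by 1.43 and was detected in 5 of 5 MPNST-like and 2 of 5 pigmented tumors. Of 7 measured endothelial markers 2 rose and 1 fell (5 and 0 after median scaling), a share called near that of all genes (38.8%), with summed levels of 1646 to 3063 in MPNST-like and 1281 to 2614 in pigmented tumors. Of 6 measured Schwann cell markers 3 rose (Gap43, Ngfr and Egr2) and Sox10 fell, and their mean log2 score was 0.09 to 1.39 in MPNST-like and -1.33 to 0.05 in pigmented tumors. Their summed levels overlapped, at 3649 to 8908 in MPNST-like and 4478 to 7445 in pigmented tumors. Sox10 was the largest part of this sum in every tumor, with a mean log2 level of 11.60 in MPNST-like and 12.47 in pigmented tumors. The overlap of the sums therefore says little of the other Schwann cell markers. Of 10 measured keratinocyte markers 1 rose and 0 fell, a smaller share than of all genes. Their median log2 difference was still 1.18, against 0.011 over all genes, so the few calls do not mean equal levels. Summed levels varied widely, at 4188 to 33410 in MPNST-like and 3046 to 26101 in pigmented tumors. The part of these cells in the levels of Actg2, Myl9, Cald1, Tpm1, Tpm2 and Cnn2 was not tested.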

How the data were processed

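RNA of 10 tumors was measured on Illumina MouseWG-6 v2.0 arrays after 100 ng of RNA had been amplified and labelled, per the labels' protocols. Per the file headers, the deposited scanner table gives each probe's average bead intensity on every array, with its detection p-value, and 0 intensities were negative. The authors' normalized values were also deposited and were taken as log2, because they were linear, once raised to base 2, in the scanner intensities on every array (R squared of 1), with slopes of 0.578 to 1.1 on MPNST-like and 1.11 to 2.62 on pigmented arrays. How they were normalized and centred is unknown. Their medians were 4.79, 4.85, 4.80, 4.80 and 4.82 on MPNST-like arrays 1 to 5 and 4.79, 4.92, 5.0, 4.86 and 4.96 on pigmented arrays 1 to 5.

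Intensities were background-corrected with neqc of limma 3.58.1 (R 4.3.3, offset 16), quantile-normalized and put on the log2 scale. The 22480 probes detected at p under 0.05 on at least 3 arrays were kept. Of all probes, 34885 had 1 symbol, 18 several and 10378 none. The brightest probe stood for each of 11984 genes, and probes were also fitted singly. Groups were compared with lmFit and eBayes, with Benjamini-Hochberg adjustment over all genes or probes at 0.05, after a test on simulated data. The precision is limited by the number of arrays. The members and gene lists were chosen with earlier results of these data known. All members are named, and from each list up to 4 genes that passed with the largest differences, and further list genes were named after their values were seen. Some listed symbols were matched through older RefSeq synonyms. Figures used matplotlib 3.10.9. Alternatives were other background, scaling, filter, probe, chip, variance and threshold settings, the striated muscle score as a covariate, and leaving out tumors.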

Additional observations from a re-analysis of the deposited data

Results flagged for a closer look

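Actg2 in MPNST-like 3, at a log2 intensity of 9.15, lay far below the other MPNST-like tumors, which ran from 12.25 to 13.12. The gap to the nearest of them took up 0.78 of the group's whole range, above Dixon's limit for 5 samples. It was the only one of 22 sets of 5 values (9 genes and 2 ratios in each group) to do so, and chance alone marks about 1 in 20 such sets. Without MPNST-like 3 the Actg2 difference was 6.25.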

How the results depend on the processing

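No paired analysis was possible because the labels give no replicate numbers, and the numbers used here pair no tumors. Over 26 alternatives (24 for the ratios, for which the variance and covariate settings give no value) the number of member genes that fell was 0 throughout, Actg2 stayed past the threshold at 4.48 to 7.18, and the Acta2 difference stayed short of it at 0.04 to 1.24. With no background correction, Actg2, Myl9, Cald1 and Cnn2 stayed past the threshold at 4.64, 2.60, 1.63 and 1.07. Chip 1 alone, with 2 against 2 tumors, called 1 member gene, 2 member probes, 255 genes higher and 132 lower. The numbers of all genes higher and lower were 3845 and 902 with arrays scaled to a common median, 1220 and 3820 in the authors' values, and 1274 and 1514 at an adjusted p under 0.01. The Actg2 to Acta2 ratio missed its threshold within chip 1 (5.94) and chip 2 (4.02), at an adjusted p under 0.01 (4.76) and without the 3 tumors rich in striated muscle RNA (4.81, exact permutation test, adjusted p = 0.057); the number of tumors left sets the smallest p there. Myh11 changed sign in the authors' values (-0.02), within chip 2 (-0.01) and without those 3 tumors (-0.06), and ran from -0.01 to 0.30 when 1 tumor was left out, with the sign turned without MPNST-like 2 or pigmented 5; the cause was not tested. Leaving out 1 tumor at a time gave 6 to 7 member genes higher, 12 to 13 member probes, 1845 to 2377 genes higher and 2013 to 2620 lower, 5.13 to 6.25 for Actg2 and 4.32 to 5.34 for the ratio. Signals near background limit Tagln, Myh11, Cnn1 and the pigmented levels of Cald1.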
